A study of Mus musculus with 2 samples.

Results

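Potassium channel genes were followed from control to Phf6 knockdown in cultured mouse cortical progenitors. The set held every protein-coding gene whose symbol starts with Kcn in the GENCODE mouse annotation. These were 94 of the 47643 gene rows in the count files. No member was picked by its expression, but the set was chosen with earlier results of these data known. By channel structure 40 were voltage-gated, 15 inward rectifier, 14 two-pore and 8 calcium-activated genes, the last class including their sodium-activated relatives, and 17 encoded auxiliary proteins. The cells came from the cortex of wild-type male mice at embryonic day 14, were electroporated with non-targeting control siRNA (siCtl) or with siRNA against Phf6 (siPhf6), and were kept 5 days in culture before mRNA-seq. Phf6 encodes a chromatin-associated zinc finger protein, and the comparison asks which potassium channel transcripts differ when its mRNA is reduced. The siRNA acts on cultured cells and lowers the transcript without deleting the gene. Each group is 1 library, with 12155311 gene reads in siCtl and 10561757 in siPhf6, so there is no replicate check. The experiment was described with n = 3 for each siRNA, against 1 count file a group here. Whether a library holds a single culture or several pooled ones is not given in the sources used here.

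Potassium channels let potassium ions cross the cell membrane and hold it near its resting voltage. Voltage-gated channels open on depolarisation and end the action potential, inward rectifiers and two-pore channels set the resting conductance, and calcium-activated channels link calcium entry to membrane voltage. Auxiliary subunits do not conduct but alter gating and delivery to the membrane. In the developing cortex these channels take part in setting the resting potential of progenitors and the excitability of the neurons they produce.

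The targeted gene was lower in the siPhf6 library. Phf6, on the plus strand of the X chromosome (chrX:52912266-52956943, GRCm38), had 1420 siCtl and 310 siPhf6 reads. After scaling to RPM, the reads of a gene per 1000000 gene reads, the level in siPhf6 was 25.2% of that in siCtl, a log2 ratio of -1.99 with a 95% counting interval of -2.17 to -1.81. Every log2 ratio given here is siPhf6 over siCtl on the log2 scale of RPM with 1 read added to each count. The intervals are exact Clopper-Pearson intervals, which cover counting error only and compare 2 libraries rather than the 2 conditions. A gene was called higher or lower where the ratio reached 1.5-fold and the interval lay on one side of equality, and only genes that reached 150 reads in one or both libraries were tested.

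Cell type markers moved beside the channel genes. Summed over its 11 markers, radial glia stood at 757 RPM in siCtl and 1056 RPM in siPhf6. Among the 7 past the filter, Nes, Slc1a3 and Tnc were called higher, while Sox2 was uncalled at 23.0 and 19.7 RPM. The summed levels of the astrocyte list were 339 and 467 RPM (Slc1a2 and Aqp4 higher), those of the dividing cell list 29.6 and 61.9 RPM (Top2a and Mki67 higher) and those of the oligodendrocyte lineage list 75.4 and 96.3 RPM (Olig1 and Olig2 higher, with Mbp uncalled at 30.4 and 24.4 RPM). All 12 postmitotic neuron markers passed the filter and none was called, at 4320 and 4344 RPM. Neither were any of 7 glutamatergic neuron markers (1282 and 1177 RPM) or of 3 intermediate progenitor markers past the filter (179 and 223 RPM, with Neurog1 at 0 in both libraries). Lhx6 was the 1 gene called lower of 5 GABAergic neuron markers (313 and 303 RPM), and Acta2 of 4 mural cell markers (112 and 107 RPM). The lists for microglia (4.36 and 5.40 RPM), endothelium (6.42 and 7.48 RPM, Cldn5 at 0) and choroid plexus (0.576 and 0.284 RPM) had no gene past the filter. The libraries labelled as cortical progenitors thus held neuronal transcripts beside those of radial glia. In bulk RNA fewer cells of a type and less RNA per cell cannot be told apart, and the part of these marker differences in the channel results was not tested.

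Of the 94 potassium channel genes, 46 passed the filter, 25 reached 10 reads but not 150 in their higher library and 23 had fewer than 10 reads in both. Kcng4, Kcnj1, Kcnk16 and Kcnk18 had no read in either library, which at a floor of 3 reads allows up to 0.247 RPM in siCtl and 0.284 RPM in siPhf6. The 94 genes together took 43962 reads in siCtl and 36340 in siPhf6, or 0.362% and 0.344% of all gene reads (log2 ratio -0.07, interval -0.09 to -0.05). The channel total therefore differed little between the libraries, while single members differed in both directions.

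Of the 46 genes past the filter, 6 (13.0%) were called higher in siPhf6, beside 4.18% of all 10130 genes tested, and 4 (8.70%) were called lower, beside 3.23%. In either direction these were 10 of 46 (21.7%), beside 7.4% of all genes tested. The other 36 were not called. The genes called higher were Kcnc4, Kcnip3, Kcnv1, Kcnk3, Kcnt2 and Kcnj10, and the genes called lower were Kcnk2, Kcnmb4, Kcnq3 and Kcnk9. Of these, Kcnip3 and Kcnmb4 passed the filter only through the library in which they were higher, so the counts include members that entered in this way. Ratios ran from -1.12 for Kcnk2 to 1.23 for Kcnc4, with a median of -0.02, beside 0.0096 over all genes tested. A robust standard deviation of the ratios, scaled from the median absolute deviation, was 0.45 over the 46 genes and 0.24 over all genes tested. Without the fold threshold, the interval lay above equality for 15 genes (32.6%, beside 27.2% of all genes tested) and below it for 17 (37.0%, beside 25.4%), and it spanned equality for 14. The calls came from all 5 structural classes, as the plot of ratios by class shows.

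**Figure D1:**
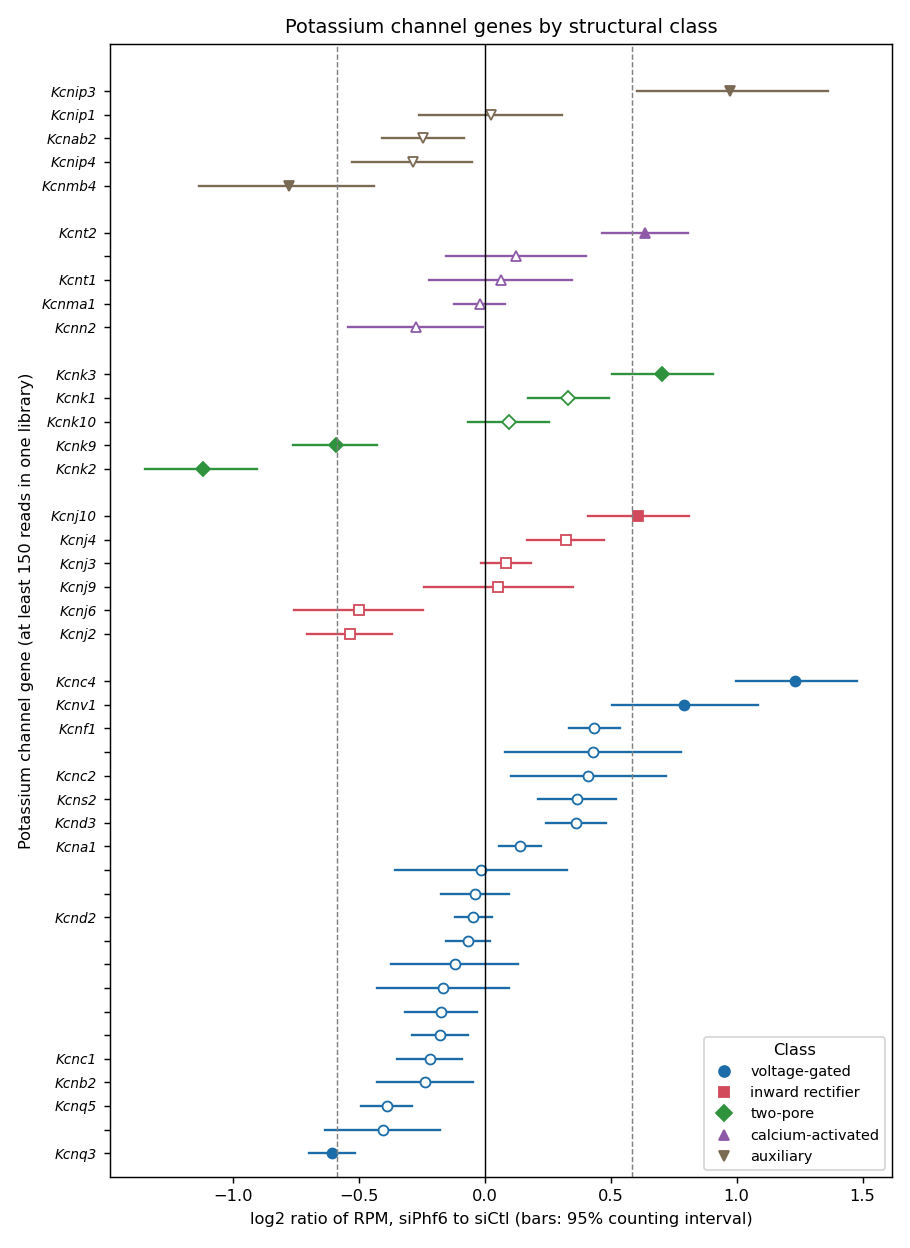
Log2 ratios, siPhf6 over siCtl, along the horizontal axis for 42 potassium channel genes past the filter, grouped by structural class, with 95% counting intervals as bars, 1 library per group and names at genes described in the text. Filled points are genes called at 1.5-fold (dashed lines), with Kcnc4 farthest to the right at 1.23 and Kcnk2 farthest to the left at -1.12.

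Levels of different genes were compared per length, as reads per kilobase of exon in 1000000 gene reads, averaged over the 2 libraries. Kcnd2, a Shal family subunit that carries the fast inactivating current of dendrites, was the most abundant at 52.1, followed by Kcna1, a Shaker family subunit of axons, at 43.4. Kcnf1, a modifier subunit that forms no channel by itself, came next at 29.8. The inward rectifiers Kcnj4 at 29.0 and Kcnj3, a G protein-gated subunit, at 28.4 had levels close to it. Kcnk1 at 25.3 was the most abundant two-pore channel gene, Kcnab2 at 10.1 the most abundant auxiliary gene and Kcnma1, the pore of the large-conductance calcium-activated channel, at 8.18 the most abundant of its class. Among the called genes, Kcnq3 (12.6) stood highest in this order. The 10 genes with the most reads took 56.8% of the channel reads in siCtl and 54.3% in siPhf6.

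**Figure D2:**
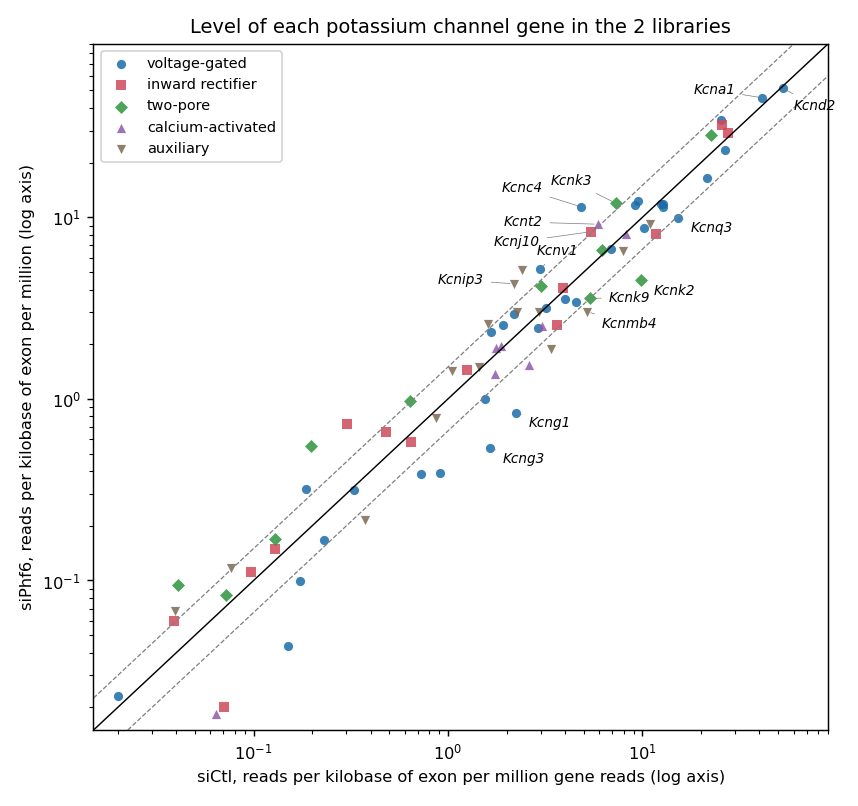
Reads per kilobase of exon in 1000000 gene reads in siCtl (horizontal, log axis) and siPhf6 (vertical, log axis) for 81 potassium channel genes with reads in both libraries, coloured by class, with equality as a solid line and 1.5-fold as dashed lines. The most abundant members, Kcnd2 and Kcna1, lie close to equality, and points scatter more widely at low levels, where few reads were counted.

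Voltage-gated genes gave 71.3% of the channel reads in siCtl and 69.5% in siPhf6. Of 25 past the filter, Kcnc4 and Kcnv1 were called higher and Kcnq3 lower, with a class median of -0.05. Kcnc4, a Shaw family subunit that opens at strongly depolarised voltages and inactivates fast, had 216 siCtl and 442 siPhf6 reads (17.8 and 41.8 RPM), or a ratio of 1.23 (interval 0.998 to 1.48). It lies on the minus strand at chr3:107438303-107459552. Its relatives Kcnc2, with 166 and 192 reads (0.41, 0.11 to 0.72), and Kcnc1, with 1166 and 871 (-0.22, -0.35 to -0.09), were not called. The interval of Kcnc4 lay above those of both relatives.

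The KCNQ family carries the M current, a slow potassium current that restrains repetitive firing and is closed by muscarinic receptors. Kcnq3 (chr15:65986387-66286642, minus strand) was counted 2712 times in siCtl and 1547 times in siPhf6 (223 and 146 RPM), which gave a ratio of -0.61 (interval -0.70 to -0.52). Kcnq5, of the same family, had 2009 and 1333 reads, a ratio of -0.39 (-0.49 to -0.29). It did not reach 1.5-fold, but its interval lay below equality, and it was singled out after its values were seen.

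Kcnb2, a Shab family subunit of delayed rectifier channels, had 536 and 395 reads, a ratio of -0.24 (interval -0.43 to -0.05), and was left uncalled. The modifier subunits, which join Shab channels and change their gating, had the opposite sign where they were abundant. Kcnv1, at chr15:45106284-45114920 on the minus strand, had 166 and 250 reads (13.7 and 23.7 RPM), a ratio of 0.79 (0.50 to 1.09). Kcnf1 had 1476 and 1734 reads (0.44, 0.33 to 0.54) and Kcns2 had 647 and 725 (0.37, 0.21 to 0.52), neither of them called. Among modifier genes under the filter, siCtl had more reads of Kcng1 with 122 and 40 reads (-1.38, -1.96 to -0.88), Kcng3 with 67 and 19 (-1.56, -2.43 to -0.86), Kcns3 with 35 and 13 (-1.16, -2.27 to -0.27) and Kcns1 with 24 and 11 (-0.86, -2.10 to 0.16). Kcng2 had 12 and 10 reads (-0.04, -1.43 to 1.28) and Kcnv2 0 and 5. The modifier genes past the filter thus lay above equality. Under the filter, the intervals of Kcng1, Kcng3 and Kcns3 lay below equality and those of Kcns1 and Kcng2 spanned it, while Kcnv2 had reads in siPhf6 alone. Kcnf1 gave most of the sum over the 10 modifier genes, which was 210 RPM in siCtl and 266 in siPhf6. All genes of this paragraph other than Kcnv1 and Kcnf1 were singled out after their values were seen.

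The most abundant Shaker and Shal genes lay near equality. Kcnd2 gave 3315 and 2791 reads (273 and 264 RPM), a ratio of -0.05 (interval -0.12 to 0.03). Kcna1 had 2401 and 2297 reads, a ratio of 0.14 (0.06 to 0.22). Both intervals lie within 0.32 of equality on the log2 scale, as they did for 11 of the 46 genes past the filter, 7 of which belong to the voltage-gated class. Kcnd3, another Shal subunit named after its values were seen, had 1062 and 1186 reads (0.36, 0.24 to 0.48) without being called.

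Inward rectifiers pass potassium more easily into the cell than out of it. They held 347 RPM in siCtl and 360 in siPhf6, and of 6 past the filter Kcnj10 was called higher and none lower. Kcnj10, the glial channel that clears potassium released by neurons, had 359 and 476 reads (29.5 and 45.1 RPM), a ratio of 0.61 (interval 0.41 to 0.81), and lies at chr1:172341210-172374085 on the plus strand. Its neighbour Kcnj9, at chr1:172320501-172329318 with 11.9 kb between them, had 204 and 184 reads (0.05, -0.24 to 0.35). The 2 neighbours therefore did not share a difference. The summed levels of the astrocyte and radial glia lists were also higher in siPhf6. Most of the astrocyte difference came from Slc1a2 (242 and 364 RPM), while Gfap had 33.3 and 30.2 RPM and Gja1 27.6 and 27.2 RPM. Their part in the Kcnj10 difference was not tested.

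Kcnj2, a strong inward rectifier that stabilises the resting potential, lay just outside the threshold with 779 and 467 reads (64.1 and 44.2 RPM), a ratio of -0.53 (interval -0.70 to -0.37). Kcnj6, a G protein-gated subunit named after its values were seen, had 337 and 207 reads, a ratio of -0.50 (-0.76 to -0.25). Its partner Kcnj3 had 1745 and 1607 reads (0.08, -0.01 to 0.18) and was, after Kcnd2 and Kcna1, the most abundant gene near equality. Kcnj4 had 674 and 732 reads (0.32, 0.17 to 0.47). The class thus held members on both sides of equality.

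Two-pore channels carry the background potassium current that sets the resting potential and respond to acid, stretch, lipids and anaesthetics. Of 5 past the filter, 3 were called, Kcnk3 higher and Kcnk2 and Kcnk9 lower. Kcnk2, a channel opened by stretch and by polyunsaturated fatty acids, had 589 siCtl and 235 siPhf6 reads (48.5 and 22.3 RPM), or a ratio of -1.12 (interval -1.35 to -0.90), and lies at chr1:189207930-189402273 on the minus strand. The acid-sensitive channel gene Kcnk3, at chr5:30588170-30625271 on the plus strand, had 354 and 501 reads (29.1 and 47.4 RPM), a ratio of 0.70 (0.50 to 0.90). Kcnk9, whose product is closely related to that of Kcnk3 and pairs with it, had 807 and 465 reads (66.4 and 44.0 RPM), a ratio of -0.59 (-0.76 to -0.43), at chr15:72501089-72546340 on the minus strand. These related subunits thus differed in opposite directions between the 2 libraries. Kcnk1 had 609 and 666 reads (0.33, 0.17 to 0.49) and Kcnk10, named after its values were seen, had 658 and 611 (0.10, -0.07 to 0.26), neither of them called. The class sum was 258 RPM in siCtl and 249 in siPhf6 (-0.05, -0.12 to 0.03). The total differed less than its called members, with genes on both sides of equality in the plot of RPM by gene.

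**Figure D3:**
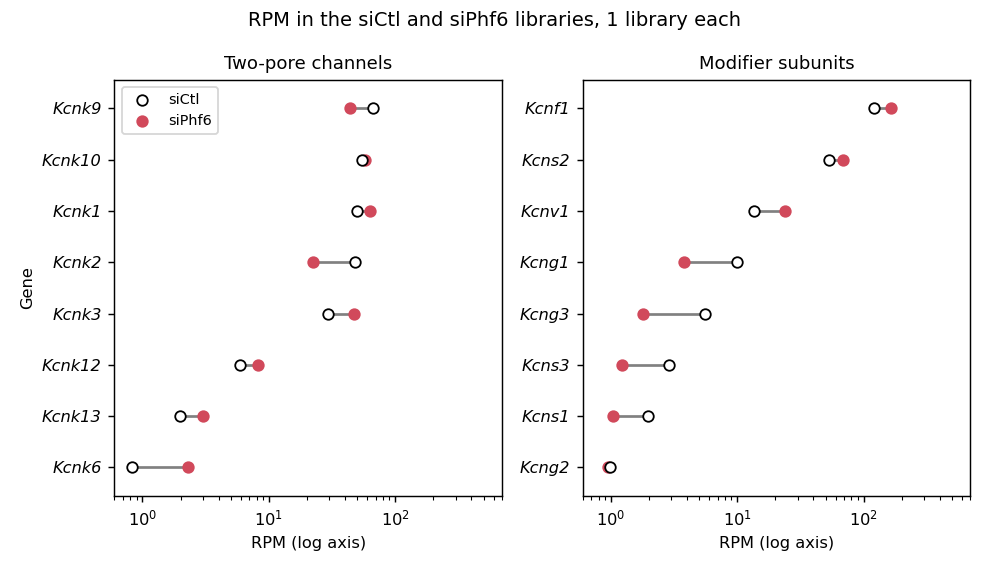
RPM (horizontal, log axis) in siCtl (open circles) and siPhf6 (filled circles) for two-pore and modifier subunit genes with at least 10 reads in one library, 1 library per group. In siPhf6, Kcnk2 and Kcnk9 lie lower while Kcnk3 lies higher, and the 3 most abundant modifier genes lie higher while Kcng1 and Kcng3 lie lower.

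Calcium-activated channels and their relatives held 258 RPM in siCtl and 271 in siPhf6. Kcnt2, which encodes a sodium-activated channel, was the 1 gene called of 5 past the filter, with 494 and 667 reads (40.6 and 63.2 RPM), a ratio of 0.64 (interval 0.47 to 0.81), at chr1:140246158-140612067 on the plus strand. Its relative Kcnt1, named after its values were seen, had 217 and 197 reads (0.06, -0.22 to 0.35). Kcnma1 had 1700 and 1456 reads (-0.02, -0.12 to 0.08), and Kcnn2, a small-conductance channel gene of the afterhyperpolarisation, had 277 and 199 (-0.27, -0.54 to -0.01). The pore gene of the large-conductance channel thus lay near equality, while a subunit that joins it did not.

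That subunit is Kcnmb4, the neuronal beta subunit that slows the gating of the large-conductance channel. It had 210 siCtl and 106 siPhf6 reads (17.3 and 10.04 RPM), or a ratio of -0.78 (interval -1.13 to -0.44), at chr10:116417861-116473878 on the minus strand. It passed the filter through the siCtl library alone. Kcnip3, a calcium-binding partner of Shal channels that also acts as a transcriptional repressor, had 94 and 161 reads (7.73 and 15.2 RPM), a ratio of 0.97 (0.60 to 1.36), at chr2:127456498-127522094 on the minus strand. It passed the filter through the siPhf6 library alone. The other Kcnip genes past the filter were not called. Kcnip1, named after its values were seen, had 222 and 196 reads (0.02), and Kcnip4 had 351 and 250 (-0.29). Kcnab2, a cytoplasmic beta subunit of Shaker channels, had 741 and 543 reads (-0.25, -0.41 to -0.08).

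Exons of some called genes overlap annotated genes on the other strand, and the library kit is one that does not mark strand. The strand setting of the counting, which decides how reads in such stretches were assigned, is not given in the sources used here. The overlap covered 31.5% of the exon length of Kcnmb4, 12.2% of that of Kcnk2, 5.76% of that of Kcnk3 and 1.48% of that of Kcnt2. The partners had 91 and 52 reads (Kcnmb4os2), 41 and 8 (A430027H14Rik) and 191 and 280 (Gm9899), each on the same side as its channel gene. Reads of the 2 strands cannot be told apart in such stretches, and the part of the overlap in these ratios was not tested. The other 6 called genes had no exon overlap. Among genes near equality Kcnj3 had an overlap of 31.1%.

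Of the 25 channel genes with at least 10 but under 150 reads, 4 were at least 1.5-fold higher with an interval above equality (Kcnk6, Kcnj14, Kcne1l and Kcnab3) and 6 at least as far lower (Kcng3, Kcng1, Kcns3, Kcnmb2, Kcnn1 and Kcnh8). They were listed after their values were seen, and the share of all genes called in this band of reads is not given here. Kcnmb2, another beta subunit of the large-conductance channel, had 128 and 62 reads (-0.83, interval -1.30 to -0.39), the same side as Kcnmb4. Over all 71 channel genes with at least 10 reads, 10 were higher, beside 7.1% of the 16220 genes tested at that filter, and 10 lower, beside 4.46%. A gene with few reads in one library enters through the library in which it is high, so these counts describe the members that passed.

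Genes whose products bind or anchor potassium channels made up a further list. Of its 24 genes, among them scaffolds, anchoring proteins and sulphonylurea receptors, 20 passed the filter, 1 was called lower and none higher, beside the 3.23% and 4.18% of all genes tested, with a median ratio of 0.01. The gene called was Dpp10, a transmembrane partner of Shal channels, with 699 siCtl and 329 siPhf6 reads (57.5 and 31.2 RPM), or a ratio of -0.88 (interval -1.08 to -0.69). Dpp6, which encodes the related partner and was named after its values were seen, had 2414 and 1906 reads (-0.14, -0.23 to -0.05).

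How many channel genes were called depended on the rule. At a binomial false discovery rate under 0.01 with an absolute log2 ratio over 0.25, 11 were higher and 10 lower, beside 13.4% and 12.4% of all genes tested. With edgeR's exact test at a Benjamini-Hochberg false discovery rate under 0.01 and a coefficient of variation between cultures assumed to be 0.1, Kcnc4 was the 1 gene called higher and Kcnk2 the 1 called lower, beside 1.63% and 0.849% of all genes tested. The same pair was left at a threshold of 2-fold, beside 1.06% of all genes tested higher and 0.474% lower.

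Across the 46 genes past the filter, log2 ratio and exon length had a Spearman correlation of -0.36, and across 10114 genes tested with a length it was -0.12. Against mean RPM these correlations were -0.18 and -0.02. They are descriptions over genes of the same 2 libraries, which are not independent replicates. Exon length had a median of 4281.5 bases in the genes called higher (range 3546 to 6895) and 8621.5 bases in those called lower (3324 to 14708). Over all 46 the median was 5671 bases. The 2 ranges overlapped, and both groups are small.

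Promoter sequence was read from RefSeq windows on GRCm38.p6, 250 bases before to 50 after each annotated start, which matched 69 of the 94 genes with 94 windows and 6 of the 10 called genes with 11 windows. The GC box GGGCGG, searched on both strands, stood in 35.7% of all 32851 mouse windows, in 47.9% of the channel gene windows and in 6 of the 11 windows of called genes. The repeat CACACACA stood in 4.09% of all windows and in 4 of the 94 channel windows, those of Kcnh1, Kcnj3, Kcnj8 and Kcnj9, none of them a called gene. TATAAA stood in 13.6% of all windows, in 5.32% of the channel windows and in none of the 11 of called genes. The median number of CG dinucleotides was 7 over all windows, 9 over channel windows and 17 over windows of called genes. Called genes are all past the read filter while the channel windows include genes under it, and most of the 11 windows belong to Kcnk2 or Kcnip3. These medians are therefore not like for like. A match describes the letters of the window, and nothing about binding follows from it.

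The 250 bases upstream of a start are printed for Kcnip3, Kcnt2 and Kcnk2, since these stretches differ in base composition. These are the called genes with the largest ratios with a window that carries no annotated exon upstream. Where a gene had several such windows, the one with most CG was taken, so composition was part of the choice. The printed stretches hold 23 CG dinucleotides in Kcnip3 (chr2:127482500-127482749, minus strand), 10 in Kcnt2 (chr1:140245468-140245717, plus strand) and 5 in Kcnk2 (chr1:189402274-189402523, minus strand). Both Kcnip3 and Kcnk2 have other annotated starts with other composition. The windows of 300 bases at the 4 starts of Kcnk2 held 33, 33, 3 and 6 CG, one with 33 also a GC box, and those at the 3 starts of Kcnip3 held 28, 4 and 8. Which start the cells use was not measured here. Capitals mark the GC box, which among the printed stretches stands in that of Kcnip3 alone.
Kcnip3: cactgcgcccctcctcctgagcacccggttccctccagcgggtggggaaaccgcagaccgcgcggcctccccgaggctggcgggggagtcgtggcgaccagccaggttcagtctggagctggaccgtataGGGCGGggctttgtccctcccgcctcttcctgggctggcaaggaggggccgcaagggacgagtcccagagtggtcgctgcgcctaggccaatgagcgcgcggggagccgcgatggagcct
Kcnt2: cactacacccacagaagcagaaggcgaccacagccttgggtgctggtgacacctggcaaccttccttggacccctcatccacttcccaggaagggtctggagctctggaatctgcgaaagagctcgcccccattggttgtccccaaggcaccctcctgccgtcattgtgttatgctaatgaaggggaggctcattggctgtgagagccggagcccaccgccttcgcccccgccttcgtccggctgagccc
Kcnk2: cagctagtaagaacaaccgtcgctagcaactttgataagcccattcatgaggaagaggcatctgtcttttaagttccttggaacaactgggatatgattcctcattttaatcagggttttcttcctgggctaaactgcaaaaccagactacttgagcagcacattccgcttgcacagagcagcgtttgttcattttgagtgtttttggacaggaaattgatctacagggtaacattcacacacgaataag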

How the data were processed

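Per the labels, total RNA of each library was prepared with the TruSeq RNA v2 kit, and the authors aligned the reads to the mouse build mm10 (HISAT2), discarded duplicates and assigned the remainder to GENCODE M9 genes (HTSeq). The deposited values are raw read counts per gene, with no normalisation. The submitters' processing notes also name deepTools 3.5.1. Rows of HTSeq that name no gene were left out of library totals (reads with no feature were 25.3% of the total in siCtl and 24.1% in siPhf6, and ambiguous reads 1.99% and 2.04%).

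Identifiers were matched without version to GENCODE M21, whose exon union gave lengths and overlaps. Counts were scaled to RPM, and ratios, exact intervals and calls were computed in Python 3.11.15 (scipy 1.17.1) with a filter of 150 reads in at least one library, as in the study's methods. edgeR 4.0.16 and DESeq2 1.42.0 gave alternatives. The scripts were tested on simulated counts. The median half-width of the interval was 0.17 on the log2 scale for channel genes past the filter. Length and RPM comparisons between genes assume the exons of that annotation are used.

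The text names Phf6, every channel gene and partner gene called, the 3 most abundant of each class per length, and the 3 most abundant whose interval lay within 0.32 of equality on the log2 scale. Other genes were named after their values were seen, mostly as relatives or neighbours of these. Some channel genes are not reported by name or drawn here. Members and lists were chosen with earlier results of these data known.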

Additional observations from a re-analysis of the deposited data

How the results depend on the processing

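The 6 higher and 4 lower channel genes numbered the same with TMM factors, with DESeq2 size factors, with a total that left out mitochondrial genes and the 50 most abundant genes, and with 0.5 read added. Of the alternatives, these are the ones that can move a log2 ratio, and they turned the sign of no gene named by rule. With a filter of at least 10 reads, 10 of 71 channel genes were higher and 10 lower, beside 7.1% and 4.46% of all genes tested. With at least 1 read, 11 of 90 channel genes were higher and 10 lower. Among all genes 1244 were higher and 752 lower at that filter. The number of all genes tested there is not given here, so the 2 sets of counts cannot be compared as shares. At the filter of 1 read the median log2 ratio of the channel genes was 0.06, against -0.02 at 150 reads. The median over all genes moved the same way, to 0.05 at 1 read from 0.0096 at 150 reads. The binomial rule gave 11 and 10, and 2-fold and an assumed coefficient of variation of 0.1 gave 1 and 1 each. The lower filters test more genes and the 2-fold rule asks for larger ratios, while the assumed variation widens the error of every gene. The calls of Kcnip3, Kcnv1, Kcnk3, Kcnt2, Kcnj10, Kcnmb4, Kcnq3 and Kcnk9 were lost under both of these, and that of Dpp10 at 2-fold. No paired analysis was possible because each group has 1 library, and no replicate could be left out for the same reason. Depth limits the 48 channel genes below 150 reads most.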
